A study of Homo sapiens with 4 samples.

Results

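These data describe 568 nuclei of control enteric ganglioids that were left without a cell class although each of them lay inside the study's limits on nuclear quality. The nuclei were chosen by measured values: the deposited annotation marks them as filtered, while their number of detected features is over 1250 and under 7000, their number of unique molecular identifiers (UMIs, 1 per captured RNA molecule) is under 40000 and their mitochondrial percentage is under 10. They number 372 in control replicate 1 and 196 in control replicate 2, of 13377 deposited control barcodes and 25306 barcodes in the whole series. They are called the removed nuclei here. They are compared with the 4283 and 3030 control nuclei that carry a class, called the annotated nuclei. The study removed such nuclei as whole clusters and names a high percentage of ribosomal genes as the reason, so the genes that shape the clusters took part in choosing them and every gene of these nuclei is counted as used. For that reason all differences from the annotated nuclei below are given as a description, with the value of each replicate and with no test.

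Enteric ganglioids are free-floating aggregates of neurons and progenitors of the gut's nervous system, here differentiated from H9, a human embryonic stem cell line. The 4 samples are 2 untreated controls and 2 samples given 2 uM PP121, a kinase inhibitor, from day 15 to day 20, and all 4 went through the same induction of enteric neural crest and crestospheres and were kept in suspension. Each sample pooled ganglioids of 1 differentiation of this 1 cell line, and the deposited annotation puts replicate 1 of both conditions at day 42 and replicate 2 at day 38, so day and replicate cannot be told apart. Cells were dissociated with accutase and lysed with a mild detergent, and the nuclei were profiled by droplet-based single-nucleus RNA sequencing. In its column of sample names the deposited annotation gives the controls other replicate or stage numbers than the sample labels do, and the labels are followed here.

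Cytosolic ribosomal proteins build the large and small subunits of the ribosome, and their mRNAs are short, abundant and mostly cytoplasmic. Together with elongation factors and several noncoding hosts of small nucleolar RNAs they are known as TOP transcripts, because transcription starts at a C followed by an unbroken run of pyrimidines, through which their translation is controlled as a group. A preparation of nuclei mainly holds unspliced nuclear transcripts, so long genes with long introns and nuclear noncoding RNAs usually weigh heavily in it, while ribosomal and mitochondrial mRNAs mostly enter with cytoplasm that clings to the nuclei.

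The TOP element is shown here at the start sites of 5 translation genes that were among those higher in the removed nuclei. The windows below hold the 15 bases before and the 15 bases from the RefSeq start (GRCh38.p14), and the capitals mark the C at the start base and the pyrimidines that follow it without a break. RPS27, RPS16 and RPS14 belong to the small subunit, RPL13A to the large subunit, and EEF1A1 brings aminoacyl-tRNA to the ribosome. VIM, an intermediate filament of progenitors that was also higher in the removed nuclei, and NTM, a neuronal adhesion molecule of great length, are shown as contrasts and have no such run at the first base of the entry shown, so they carry no capitals.
RPS27, chr1:153990747-153990776, plus strand: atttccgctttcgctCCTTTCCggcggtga
RPS16, chr19:39435935-39435964, minus strand: gtggcccctagctttCCTTTTCCggttgcg
RPS14, chr5:150449725-150449754, minus strand: ccgccccctcccactCTCTCTTTCCggtgt
RPL13A, chr19:49487593-49487622, plus strand: cgacaaaacctcctcCTTTTCCaagcggct
EEF1A1, chr6:73521018-73521047, minus strand: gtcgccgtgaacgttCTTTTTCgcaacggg
VIM, chr10:17228226-17228255, plus strand: gtgcaatcgtgatctgggaggcccacgtat
NTM, chr11:131370600-131370629, plus strand: atgtgtctcagtgccagagtatgagtggag

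A run was counted where the start base is C and at least 4 further pyrimidines follow in the direction of transcription, in any of a gene's listed starts. NTM has 5 listed starts, none with a run, and each of the other genes shown has 1. Of all 27305 genes with a start in the table, 5.14% had such a run. It was present in 28 of the 38 genes of the large subunit that the table holds, in 19 of 25 of the small subunit and in 11 of 14 translation factors. Of the genes of oxidative phosphorylation 9 of 63 had it, and of the targets of p53 1 of 10. Among genes on no ribosomal or mitochondrial list, the run stood at 14.2% of the 597 that were higher in the removed nuclei, 6.98% of the 1691 that were lower and 7.22% of all 8006 compared. A match describes the annotated start and is not a test of use, since starts in these cells were not measured.

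The removed nuclei were nuclei of ordinary depth. Their median UMI count was 5448.5 in replicate 1 and 6524 in replicate 2, against 7007 and 7071 in the annotated nuclei, and they detected a median of 2527.5 and 2760 features against 3310 and 3178.5. Counting error is small for the sums, which rest on 2391732 and 1512284 UMIs in the removed and 34123759 and 24850084 in the annotated nuclei. The lower limit on features bounds the set, while the upper limits lay clear of it. The removed nucleus with the fewest features had 1254 in replicate 1 and 1264 in replicate 2, where the nearest barcode outside that limit had 1250 in both, and 37 and 8 of the removed nuclei were under 1500. At the upper ends they reached 6070 and 5515 features against 7005 and 7012 for the nearest nuclei outside, and a mitochondrial percentage of 3.05 and 8.99 against 10.37 and 11.2. No barcode was shared between the removed nuclei of the 2 libraries, and the control libraries as a whole shared 15.

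The deposited share of ribosomal counts had a median of 4.45% and 4.47% in the removed nuclei and of 0.931% and 0.853% in the annotated ones. The quartiles of the removed nuclei were 2.85% and 9.25% in replicate 1 and 2.93% and 7.52% in replicate 2, with a full range from 1.65% to 33.9% and from 1.53% to 24.6%. The ranges overlapped: 82 and 41 removed nuclei lay below the value that the top 5% of annotated nuclei exceed, and the annotated nuclei reached 10.97% and 20.97%. The 69 and 50 annotated nuclei that lay above the median of the removed ones were mostly neurons, Progenitor 2 and mesenchymal nuclei. In replicate 1 they were 43 neurons and 22 nuclei of Progenitor 2, with 3 of the class named unknown, 1 epithelial and none of Progenitor 1. In replicate 2 they were 21 neurons, 19 mesenchymal nuclei and 8 of Progenitor 2, with 1 of Progenitor 1 and 1 unknown.

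**Figure D1:**
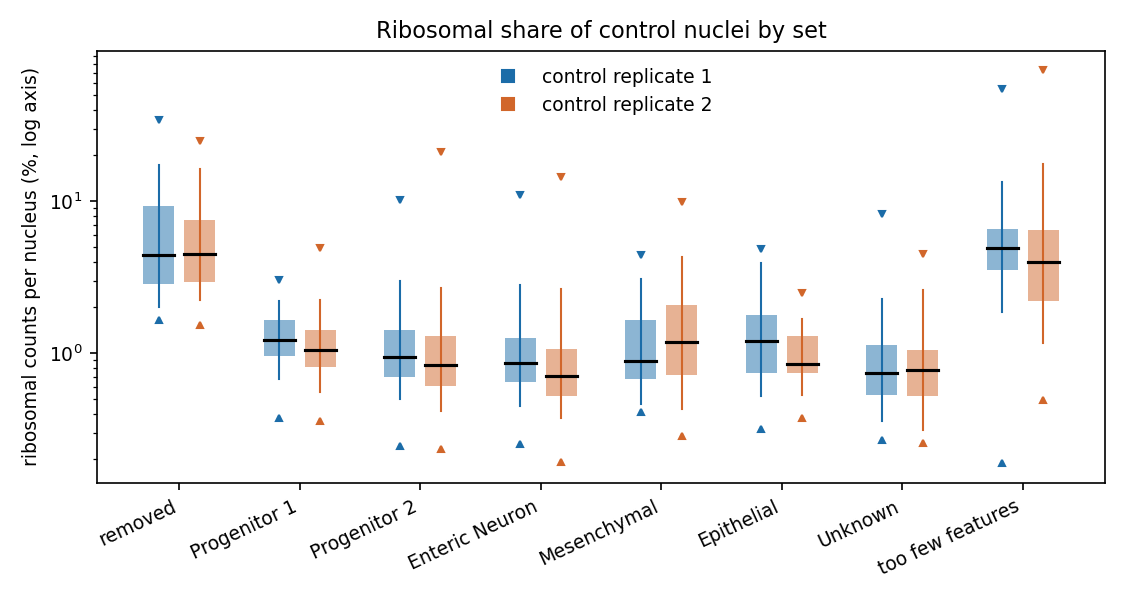
The plot gives the ribosomal share of counts per nucleus in percent on a log axis for the removed nuclei, the annotated classes and the barcodes with few features, in control replicates 1 and 2. Boxes span the quartiles, the black line is the median, the thin line runs from the 5th to the 95th percentile and the triangles mark the lowest and highest nucleus; the removed medians of 4.45% and 4.47% lie above those of the annotated classes, while the ranges overlap.

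At the level of genes, counts were summed over the removed and over the annotated nuclei of each replicate and scaled to CPM, the counts of a gene per 1000000 counts of the sum. A gene is called higher or lower below when its ratio was at least 2-fold in the same direction in both replicates, among the 10815 genes with a mean of at least 10 CPM. By this rule 822 genes (7.60%) were higher in the removed nuclei and 2642 (24.4%) were lower, and the median gene stood at a log2 ratio of -0.22 in replicate 1 and -0.37 in replicate 2. The split depends on the scaling: higher genes made up 23.7% of all called genes with CPM, 45.2% with the trimmed mean of M values (TMM) of edgeR and 52.9% with DESeq2 size factors, which moved the median gene up by 0.35 and 0.46 on the log2 scale. Ratios of the 2 replicates had the same sign for 88.6% of genes. Because the rule used these values, the shares called are a frame for the lists and nothing is read from them.

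**Figure D2:**
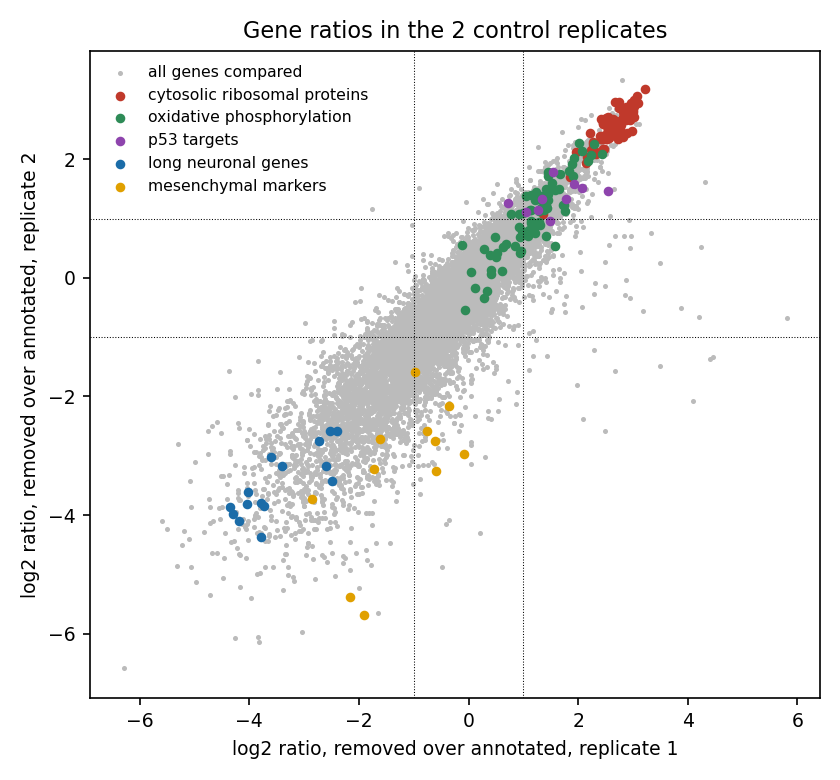
Each point is a gene, placed by its log2 ratio of removed over annotated control nuclei in replicate 1 (horizontal) and replicate 2 (vertical), with gene lists in colour over all 10815 genes in grey and dotted lines at 2-fold. The ribosomal protein genes lie together at the upper right, all 79 higher in both replicates, and the 15 long neuronal genes lie at the lower left.

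All ribosomal protein genes that were measured were higher, with mean log2 ratios over both replicates from 1.22 to 3.21. Of the large subunit 47 of 47 were higher, with a median log2 ratio of 2.56 in replicate 1 and 2.47 in replicate 2, and of the small subunit 32 of 32, with medians of 2.75 and 2.61. As a share of all summed counts, ribosomal protein mRNA made up 6.51% and 6.15% of the removed nuclei and 1.02% and 1.03% of the annotated. RPS27 stood at 1576 and 1520 CPM in the removed nuclei of replicates 1 and 2 and at 167 and 166 CPM in the annotated, log2 ratios of 3.23 and 3.19. RPL13A stood at 1636 and 1434 CPM against 203 and 205. In both genes the replicates of 1 kind lay close together and far from the other kind. The smallest difference among them was that of RPS26, at 134 and 96.5 CPM against 51.5 and 45.1, log2 ratios of 1.36 and 1.08. Many of these genes have processed pseudogenes of nearly the same sequence, so reads may have been split between copies.

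Other parts of the translation machinery went the same way. Of the 20 translation factors measured 18 were higher, with medians of 1.93 and 1.79. EEF1A1 stood at 2147 and 2425 CPM in the removed nuclei and 332 and 360 in the annotated. RACK1, a scaffold on the small subunit, stood at 626 and 781 CPM against 105 and 106, and TPT1, a TOP mRNA for a protein linked to cell growth, at 720 and 498 against 115 and 106. The factors that were not higher by the rule were PABPC1, which binds poly(A) tails, at 361 and 334 CPM against 191 and 209, and EIF4G2, which takes part in cap-independent initiation, at 164 and 151 against 114 and 116. The spliced noncoding hosts of small nucleolar RNAs, which make no ribosomal protein, followed with 8 of 9 higher and medians of 2.19 in both replicates. SNHG6 stood at 334 and 333 CPM in the removed and 51 and 45.6 in the annotated nuclei. The exception was SNHG5, at 268 and 147 CPM against 113 and 114. Of 5 paralogs of ribosomal proteins that were measured, 4 were higher.

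Metabolic genes differed by pathway, where 7.60% of all genes were higher. Of the nuclear genes of oxidative phosphorylation 39 of 76 were higher and none was lower, with medians of 1.23 and 1.12. Of genes other than ribosomal ones, 35.7% were higher under 5 kb and 5.19% at 20 to 50 kb. Pathway and span were not told apart here. COX7C, a small subunit of cytochrome c oxidase, stood at 340 and 282 CPM in the removed nuclei and 68.9 and 58.1 in the annotated, and ATP5F1E of the ATP synthase at 286 and 199 against 52.3 and 46.2. SDHC, a membrane anchor of succinate dehydrogenase, showed no such difference, at 59.8 and 37.7 CPM against 62.3 and 55.5. The genes that the mitochondrial genome itself encodes were not called in either direction, 0 of 10, with medians of 0.41 and 0.16, and their sum was 0.0455% and 0.0358% of counts in the removed nuclei and 0.0334% and 0.0311% in the annotated. Single nuclei held 56.5% to 69.8% of the counts of each of 6 of these genes in replicate 1 and 60.9% to 73.4% of 4 in replicate 2, and in the removed nuclei nearest to Progenitor 1 the sum was 0.0171% and 0.0373%, against 0.0247% and 0.0230% in annotated Progenitor 1 nuclei. Of nuclear genes for the mitochondrial ribosome 9 of 51 were higher, with medians of 0.77 and 0.69.

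Genes of carbon metabolism passed the 2-fold rule in part, where 7.60% of all genes were higher. Of 19 measured glycolytic genes 4 were higher, among them GAPDH, at 473 and 608 CPM in the removed nuclei and 98 and 112 in the annotated, and LDHA, which turns pyruvate into lactate, at 117 and 149 against 46.6 and 55.7. The glucose transporter SLC2A1 went opposite ways, at 73.6 and 35.7 CPM against 26 and 44.7, so the replicates do not share a direction. Of the tricarboxylic acid cycle 3 of 14 genes were higher, with medians of 0.46 and 0.30. Of 12 genes induced by low oxygen 1 was higher, the histone demethylase KDM3A, at 327 and 350 CPM against 107 and 160. ADM, another gene induced by low oxygen, stood at 33.9 CPM against 6.01 in replicate 1 and at 4.63 against 4.95 in replicate 2. Of 13 genes of the sterol list none was higher, with medians of 0.35 and -0.02. Of 10 measured genes of the amino acid stress response 2 were higher: SHMT2, a mitochondrial enzyme of serine metabolism, at 38.5 and 45 CPM against 8.5 and 6.2, and the transcription factor ATF4, at 171 and 98.5 against 31.8 and 26.2.

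Targets of p53, the transcription factor activated by DNA damage and by disturbed ribosome assembly, were higher in the removed nuclei than in all annotated nuclei. None of them passed the 2-fold rule when removed nuclei nearest to Progenitor 1 were set against that class. Progenitor 1 was nearest to most removed nuclei only with ribosomal and mitochondrial genes left out of the search. Against all annotated nuclei 8 of 10 targets were higher, with medians of 1.51 and 1.33. MDM2, which targets p53 for degradation, stood at 608 and 532 CPM against 177 and 211, and CDKN1A, an inhibitor of the cell cycle, at 102 and 46.3 against 23.6 and 15.6. When the removed nuclei nearest to Progenitor 1 were set against annotated Progenitor 1 nuclei, 0 of 10 were past the rule, with medians of 0.51 and 0.52 and all 10 above 0 in both replicates, where 3.09% of all genes were higher and the median gene stood at -0.26 and -0.35. MDM2 had log2 ratios of 0.48 and 0.21 there. Of 14 chaperones 2 were higher, with medians of 1.13 and 0.42. The inducible heat shock gene HSPA1A stood at 308 CPM against 39.8 in replicate 1 and at 69.4 against 35 in replicate 2, so 1 replicate carried most of that difference. Of 7 immediate early genes none was higher and 1 was lower. The S phase list had 1 of 7 genes higher, PCNA, and 1 lower, and the G2M list had 1 of 7 higher, HMGB2, and 2 lower, among them CENPF, with log2 ratios of -1.63 and -1.38.

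Of 9 measured nuclear noncoding RNAs 1 was higher and 3 were lower, where 7.60% of all genes were higher and 24.4% lower. Their medians of 0.52 and -0.24 had no common direction. MALAT1, an abundant RNA retained in nuclear speckles, made up 12.8% and 15.5% of summed counts in the removed nuclei and 6.48% and 5.90% in the annotated, log2 ratios of 0.98 and 1.40 that missed the rule in replicate 1. NEAT1, which builds paraspeckles, was the 1 of 9 that was higher, at 6170 and 7281 CPM against 2703 and 2920. The 3 lower ones were KCNQ1OT1, FTX and SNHG14, long noncoding transcripts that take part in imprinting or X inactivation loci, with KCNQ1OT1 at 170 and 137 CPM against 588 and 772. Among short abundant mRNAs of the cytoplasm other than ribosomal ones, 8 of 24 were higher and 1 was lower. FTH1, the ferritin heavy chain, stood at 549 and 362 CPM against 135 and 109, and ACTG1, a cytoplasmic actin, at 861 and 928 against 274 and 271. TUBA1A, a tubulin of growing neurites, stood at 378 and 269 CPM in the removed and 389 and 276 in the annotated nuclei. The lower one was STMN2, a microtubule regulator of neurons, at 74.8 and 30.4 CPM against 160 and 135.

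Neuron markers and long neuronal genes were mostly lower in the removed nuclei than in all annotated nuclei, where 24.4% of all genes were lower. Of genes over 500 kb other than ribosomal ones 81.1% were lower, so for the long genes lineage and span cannot be told apart. All 15 very long neuronal genes were lower, with medians of -3.72 and -3.61, and their sum was 0.102% and 0.0778% of counts against 1.12% and 0.834%. NRXN3, a presynaptic adhesion molecule, stood at 229 and 149 CPM in the removed nuclei and 3159 and 2070 in the annotated. CNTNAP2, of the same superfamily, stood at 20.5 CPM in both replicates against 419 and 339. Of 10 measured neuron markers of the study 9 were lower. DCX, a microtubule protein of young neurons, stood at 89.5 and 84 CPM against 315 and 265. The marker that was not lower by the rule was SYP, of synaptic vesicles, at 23.8 and 21.2 CPM against 29.2 and 20.8.

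Single progenitor genes differed in direction. Of 6 measured progenitor markers of the study 1 was higher and 2 were lower, where 7.60% of all genes were higher and 24.4% lower. With so few genes, nothing is read from these counts about progenitor genes as a group. The higher one was SOX2, a transcription factor of neural progenitors, at 77.3 and 75.4 CPM in the removed nuclei and 31.1 and 28.5 in the annotated. The lower ones were MEF2C, at 43.1 and 45 CPM against 298 and 251, and NFIA, a factor of gliogenesis, at 90.7 and 124 against 295 and 345. PAX3, a factor of the neural crest, stood at 148 and 134 CPM against 285 and 291, just short of the rule in replicate 1. Of 9 neuroepithelial genes 1 was higher and 3 were lower, and the higher one was VIM, at 2239 and 3085 CPM against 372 and 546. SOX8, the only glial gene with enough counts, stood at 23 and 21.2 CPM against 5.89 and 5.11.

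Markers of several other lineages were at or near the limit of these data, while most mesenchymal markers could be measured. Of 11 measured mesenchymal markers none was higher and 5 were lower. PRRX1, a factor of mesenchyme, had no count in the removed nuclei of either replicate, against 2.75 and 50.5 CPM in the annotated, and the collagen gene COL1A2 stood at 10.5 and 21.2 CPM against 16.4 and 149. No epithelial, endothelial, pluripotency or leukocyte gene of the lists reached a mean of 10 CPM. Neither of 2 melanocyte genes and the 1 smooth muscle gene measured were called. The lists for neural crest (1 of 4), neuroblasts (1 of 4), placode (1 of 2), motile cilia (2 of 2), skeletal muscle (1 of 1) and transmitters (2 of 2) gave lower genes only. Among all genes 24.4% were lower, so nothing is read from lists with so few measured genes.

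Outside the ribosomal and mitochondrial genes, the 10 with the highest ratios at a mean of at least 50 CPM were FTL, HIST1H1C, SNHG6, EEF1A1, RACK1, NPC2, EIF1, SNHG8, AL118516.1 and TRMT112, of which FTL, SNHG6, EEF1A1, RACK1 and SNHG8 also belong to lists above. FTL, the ferritin light chain, stood at 1004 and 498 CPM in the removed and 116 and 81.6 in the annotated nuclei, log2 ratios of 3.10 and 2.59. EIF1, which helps the ribosome find the start codon, stood at 1210 and 1182 CPM against 196 and 171. NPC2, a carrier of cholesterol in lysosomes, stood at 106 and 105 CPM against 14.9 and 15.8, and HIST1H1C, a linker histone, at 159 and 94.6 against 18.3 and 14.8. The 10 with the lowest ratios were PLD5, PCDH9-AS2, AL033504.1, AC004160.1, GALNTL6, PAX8-AS1, SAMD5, CACNA2D3, CDH18 and AC008056.1, of which several are noncoding or antisense genes whose reads cannot be told from those of the opposite strand if strand was not used. PLD5 rested on 11 and 1 counts in the removed nuclei, at 4.6 and 0.661 CPM, against 437 and 159 CPM in the annotated. GALNTL6 had 24 counts in replicate 1 and none in replicate 2, which is at least 33.1-fold lower there when the floor is set at 3 counts per library.

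The ratio also followed the span of a gene from its first to its last base, for the 10579 genes that matched a gene of the GENCODE annotation. Other genes than ribosomal ones had medians of 0.97 and 0.72 when they spanned under 5 kb, where 35.7% of 496 were higher. The medians went down step by step to -0.03 and -0.21 at 20 to 50 kb and to -2.21 and -2.45 above 500 kb, where 81.1% of 322 were lower and none was higher. Ribosomal protein genes stood above other genes of like span, with medians of 2.77 and 2.70 under 5 kb and 2.42 and 2.34 at 20 to 50 kb. The long genes hold many neuronal genes, and class composition and span cannot be told apart in this comparison. Against annotated Progenitor 1 nuclei alone the same bins ran from 0.66 and 0.59 to -0.82 and -0.91.

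**Figure D3:**
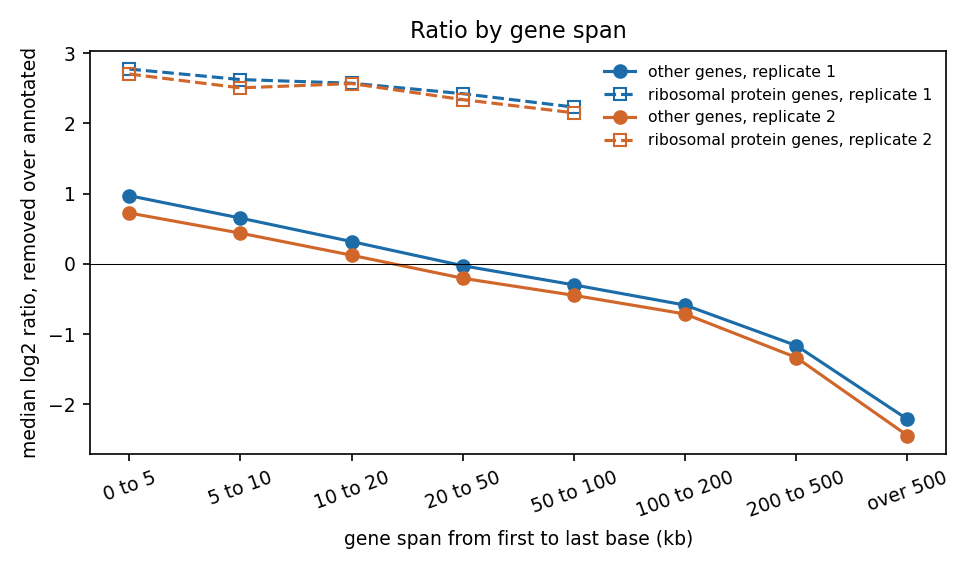
The median log2 ratio of removed over annotated control nuclei is plotted against the span of the gene in kb, with ribosomal protein genes drawn apart from all other genes and the 2 replicates in 2 colours. Medians of other genes go from 0.97 and 0.72 under 5 kb to -2.21 and -2.45 over 500 kb, and ribosomal protein genes lie above them in each bin that holds any, with 34, 27, 7, 10 and 1 of them in the bins up to 100 kb.

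To see which class the removed nuclei resembled, each was placed among the annotated control nuclei on principal components made without ribosomal and mitochondrial genes, and was given a class where at least 10 of its 15 nearest annotated nuclei shared it. In replicate 1 this gave Progenitor 1 for 293 nuclei, 78.8% (95% exact binomial interval 74.3% to 82.8%), and in replicate 2 for 161, 82.1% (76.1% to 87.2%). Such intervals cover counting error only. Progenitor 1 made up 13.7% and 20.1% of the annotated nuclei. The nearest class was the enteric neuron for 28 and 12 removed nuclei, although neurons were 53.7% and 41.3% of the annotated, and Progenitor 2 for 4 and 1. None was nearest to mesenchymal or epithelial nuclei and 47 and 22 had no clear class. The removed nuclei were close to each other first of all, with a median of 12.5 and 13 removed nuclei among their 15 nearest control nuclei.

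The placement depended on the genes that set the nuclei apart. With ribosomal and mitochondrial genes kept in the search, Progenitor 1 was the nearest class of 33.5% of the removed nuclei, the neuron of 40.5%, and 25% had no clear class. The likeness to Progenitor 1 is therefore a statement on the other genes only. Within it, the removed nuclei still had more ribosomal counts: their median was 3.77% and 3.90%, against 1.22% and 1.05% in annotated Progenitor 1 nuclei, of which the highest reached 3.01% and 4.93%. Of the removed nuclei nearest to Progenitor 1, 193 of 293 and 65 of 161 lay above that highest value.

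Against annotated Progenitor 1 nuclei far fewer genes were past the rule, 308 higher (3.09%) and 977 lower (9.81%) of 9962. The ribosomal genes remained, with 47 of 47 of the large subunit higher (medians 2.25 and 2.46) and 31 of 32 of the small subunit (2.32 and 2.60). Translation factors had 14 of 20 higher, the noncoding hosts 6 of 9, and oxidative phosphorylation 24 of 75, with medians of 0.88 and 0.89. VIM was higher too, with log2 ratios of 1.88 and 2.06, whereas SOX2 had ratios of 0.78 and 0.63 and was not called. None of 14 chaperones was called, with medians of 0.32 and -0.20. NEAT1 stood at -0.10 and 0.38, and MALAT1 at 0.71 and 1.24.

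Some neuronal and progenitor genes were lower against this class, where 9.81% of all genes were lower. Of the 15 long neuronal genes 10 were lower, with medians of -1.31 and -1.13, and NRXN3 had log2 ratios of -1.46 and -1.14. Genes over 500 kb other than ribosomal ones had medians of -0.82 and -0.91 against this class, so lineage and span cannot be told apart. LRP1B, another gene of great length, stood at -0.18 and -0.24. Of 9 neuron markers 2 were lower and of 6 progenitor markers 2 were lower, and nothing is read from so few genes. DCX stood at -0.52 and -0.36. Long neuronal genes made up 0.102% and 0.0778% of the counts of all removed nuclei and 0.181% and 0.145% of those of annotated Progenitor 1 nuclei.

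**Figure D4:**
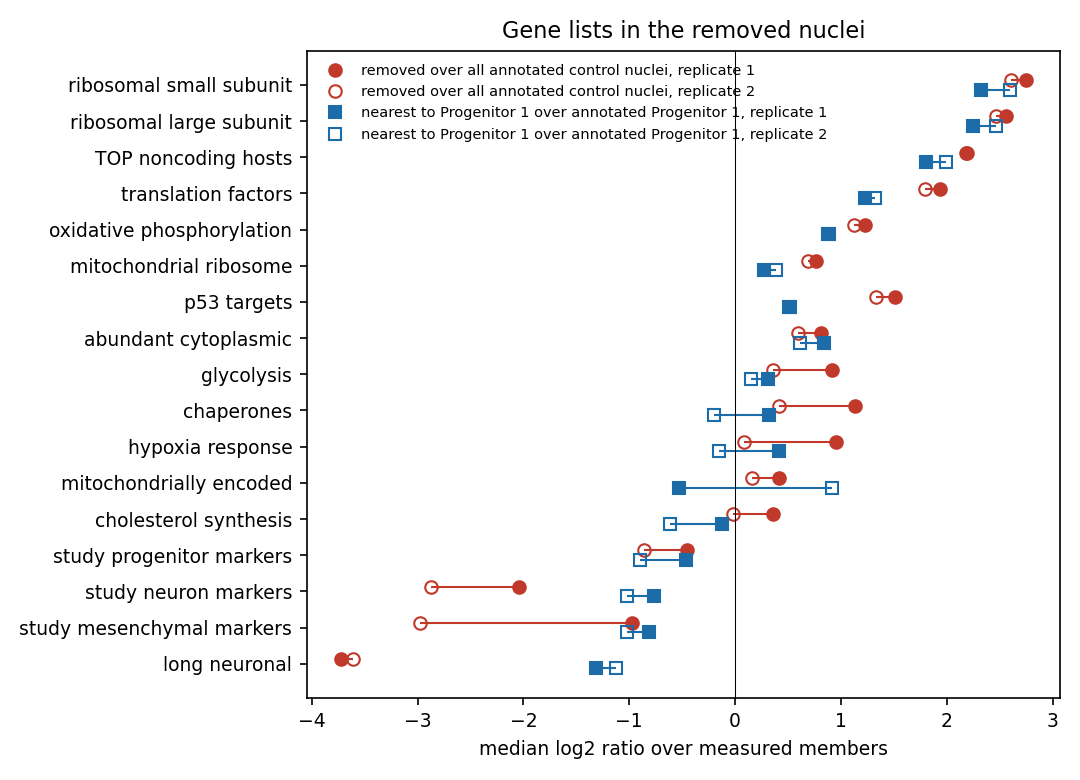
For each gene list the median log2 ratio over its measured members is shown for removed over all annotated control nuclei and for removed nuclei nearest to Progenitor 1 over annotated Progenitor 1 nuclei, with filled symbols for replicate 1 and open symbols for replicate 2. The lists of the large and small ribosomal subunits stay above 2 in both comparisons, while the p53 targets go from 1.51 and 1.33 to 0.51 and 0.52 and the long neuronal genes from -3.72 and -3.61 to -1.31 and -1.13.

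The removed nuclei nearest to neurons were few, with median ribosomal shares of 12.4% and 7.56%. Their sums held 124062 and 81542 UMIs, and set against annotated neurons 971 of 10710 genes were higher (9.07%) and 2267 lower (21.2%). All 47 genes of the large subunit, all 32 of the small subunit and 19 of 20 translation factors were higher, as were 51 of 77 genes of oxidative phosphorylation. TPT1 stood at 1419 and 883 CPM against 111 and 91.1, and ATP5F1E at 693 and 540 against 54.9 and 53.3. With EEF1A1, SNHG6 and MIF they were the 5 highest outside the ribosomal and mitochondrial lists. Neuronal genes went both ways in them. DCX, which spans 119 kb, stood at 717 and 613 CPM against 498 and 503. NRXN3, which spans 1698 kb, stood at 798 and 674 against 5243 and 4215. All 15 long neuronal genes were lower, with medians of -3.26 and -3.69, so identity and span cannot be told apart here. Transmitter genes could not be compared at this depth, where 3 counts are 24.2 and 36.8 CPM: CHAT, SLC17A6 and NOS1 had no count, and GAD1, GAD2 and TH had 1 or 2 counts in each replicate. The 5 lowest genes had none either: PLD5 was at least 30.1-fold and 8.89-fold lower, PCDH9-AS2 14.8-fold and 8.06-fold, AC015923.1 11.8-fold and 6.53-fold, AL513166.1 8.85-fold and 5.86-fold and CUX2 7.53-fold and 4.42-fold, each against a floor of 3 counts per library.

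The removed nuclei varied widely in ribosomal share. When those of each replicate were ranked by their ribosomal share and split into 4 equal parts, the share of ribosomal protein counts went from 2.17% to 14.6% in replicate 1 and from 2.34% to 12.1% in replicate 2 between the lowest and the highest of these parts, a spread that the ranking itself sets. Translation factors went from 0.544% to 1.72% and from 0.569% to 1.54%, and oxidative phosphorylation from 0.477% to 1.10% and from 0.415% to 0.826%. Mitochondrially encoded genes, of which several rest on single nuclei, went from 0.00567% to 0.126% and from 0.00942% to 0.0849%. VIM went from 0.155% to 0.300% and from 0.194% to 0.435%. The p53 targets stayed at 0.183% against 0.166% and 0.143% against 0.138%. The highest parts also held 19 of the 28 and 6 of the 12 nuclei nearest to neurons. Across nuclei, the Spearman correlation with the ribosomal share was 0.806 and 0.746 for translation factors and 0.690 and 0.627 for oxidative phosphorylation, over 372 and 196 nuclei. It was -0.00345 and 0.050 for the long neuronal genes and -0.107 and 0.036 for the p53 targets. These shares have 1 denominator per nucleus and are given as a description.

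Clustering of the removed nuclei alone gave 5 clusters, which stay unnamed. Cluster 1, with 120 and 81 nuclei, had MATN1, MAP3K19, SLC10A1 and NFIA among its leading genes and a median ribosomal share of 3.21% and 3.37%. Cluster 2, with 95 and 43 nuclei, was led by HIST2H2BF, KITLG and HIST1H1C, the last with a UMI in 68.4% and 55.8% of its nuclei, and had 0.212% and 0.200% of its counts in p53 targets. Cluster 3 held 46 and 13 nuclei and was led by TEX14, SORCS1, CROCC and HIST1H4C. Cluster 4 was unequal between replicates, with 55 nuclei against 5. Heat shock genes were frequent in it: HSPA6, which is induced by severe heat or protein stress, had a UMI in 72.7% and 80.0% of its nuclei, HSPA1A in 94.5% and 80.0%, and chaperones made up 0.788% and 0.804% of its counts. HSPA1A was also found outside it, in 48 of 95 and 14 of 43 nuclei of cluster 2 and in 29 of 120 and 24 of 81 of cluster 1. Several other leading genes of cluster 4 rest on a single nucleus, as LINC01841 does with 90.5% and 72.2% of its counts. Cluster 5, with 56 and 54 nuclei, had the highest median ribosomal shares of the 5 clusters (13.3% and 8.63%), was led by C12orf57, STMN2, LAMP5, DCX and TMSB10 and held 18 and 10 of the nuclei nearest to neurons. Without cluster 5, a setting chosen after the data were seen, the log2 ratio of the summed ribosomal protein counts went from 2.63 ± 0.061 (SD, n = 2 replicates) to 2.25.

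Some genes rested on 1 nucleus each. Of the 10815 genes, 53 in replicate 1 and 16 in replicate 2 had at least 20 counts in the removed nuclei with over 50% of them in a single nucleus, among them 6 and 4 of the mitochondrially encoded genes and none of the ribosomal protein genes. Of the higher genes 1 in each replicate was of this kind. No single nucleus held more than 5.97% and 5.27% of the counts of any ribosomal protein gene. The melanosome gene PMEL had 53.3% of its replicate 1 counts in 1 nucleus.

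The share of nuclei with at least 1 UMI gave the same picture once depth was made equal by thinning each nucleus to 2000 UMIs, which left out 4 and 0 removed and 21 and 18 annotated nuclei that were shallower. VIM had a UMI in 78.3% and 85.7% of the removed and 39.7% and 48.3% of the annotated nuclei, and in 56.4% and 62.0% of annotated Progenitor 1 nuclei. Before thinning the VIM shares were 92.5% and 97.4% against 70.3% and 76.6%. RPS27 had a UMI in 78.0% and 82.7% of removed and 25.6% and 25.9% of annotated nuclei. MDM2 had one in 53.3% and 50% of the removed nuclei, 23.9% and 27.3% of the annotated and 50.9% and 47.6% of Progenitor 1. DCX had one in 13% and 10.7% of the removed nuclei and 55.9% and 56.5% of annotated neurons. In annotated Progenitor 1 nuclei DCX had one in 9.79% and 9.29%, close to the removed nuclei. Free RNA in droplets sets a background for such shares, and mesenchymal nuclei, which should lack DCX, had a UMI of it in 2.50% and 6.67%. The 2.50% of replicate 1 is 1 of 40 nuclei. SOX2 had one in 11.7% and 13.8% of removed and 6.31% and 5.71% of annotated nuclei, against 0% and 1.23% of mesenchymal nuclei. In annotated Progenitor 1 nuclei the SOX2 shares were 7.56% and 8.46%. COL1A2, a mesenchymal gene, had a UMI in 1.63% and 4.59% of removed nuclei and 72.5% and 72.8% of mesenchymal ones.

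Barcodes under the limit on features, 3602 in replicate 1 and 1475 in replicate 2, shared the ribosomal share of the removed nuclei but differed from them in other genes. Their median UMI count was 624 and 690 and their median ribosomal share 4.91% and 3.95%. Compared with the annotated nuclei, 841 of 11710 genes were higher (7.18%) and 205 lower (1.75%). All 47 and all 32 ribosomal protein genes were higher, as in the removed nuclei. All 13 mitochondrially encoded genes were higher too, with medians of 2.75 and 2.76 and 0.215% and 0.212% of counts, where the removed nuclei had 0.0455% and 0.0358%. Of the short cytoplasmic mRNAs 21 of 24 were higher, where 8 of 24 were in the removed nuclei. None of the 15 long neuronal genes was called, with 0.644% and 0.723% of counts against 0.102% and 0.0778% in the removed nuclei. MALAT1 made up 12.8% and 7.59%, and 1 of 10 p53 targets was higher.

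No nucleus within the limits was removed from the PP121 samples in the deposited annotation. Among all cells, the study lists a removed cluster of high ribosomal percentage for controls clustered alone. For controls and PP121 clustered together it lists such a cluster among the neurons only. The absence is therefore not read as a property of the PP121 samples. The annotated PP121 nuclei were searched for nuclei like the removed control ones. A PP121 nucleus was counted when at least 8 of its 15 nearest control nuclei were removed ones, with ribosomal and mitochondrial genes left out of the search. This found 246 of 4587 nuclei in PP121 replicate 1, 5.36% (4.73% to 6.05%), and 47 of 2912 in replicate 2, 1.61% (1.19% to 2.14%). The deposited class of 214 and 39 of them was Progenitor 1, which is 17.9% and 7.78% of that class, and of 26 and 6 Progenitor 2. By the same measure 43 and 28 annotated control nuclei had mostly removed neighbours, 1.00% and 0.924%, but those counts are set by the removal itself and are not comparable.

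In the remaining PP121 nuclei of both replicates the median ribosomal share was 0.882%, and in the remaining Progenitor 1 nuclei it was 1.20% and 1.10%. In the PP121 nuclei found in this way it was 4.88% and 4.44%. Their summed counts held 6.88% and 5.81% ribosomal protein, 10.4% and 14.0% MALAT1 and 0.103% and 0.0991% long neuronal genes, where the removed control nuclei held 6.51% and 6.15%, 12.8% and 15.5%, and 0.102% and 0.0778%. Against the other PP121 nuclei, 1109 of 11092 genes were higher (10.0%) and 2437 lower (22.0%), with 47 of 47 and 32 of 32 ribosomal protein genes higher at medians of 2.49 and 2.45 and of 2.57 and 2.49. Within PP121 Progenitor 1 nuclei, 369 of 10433 genes were higher (3.54%) and 1093 lower (10.5%). There the large subunit had 47 of 47 genes higher at medians of 1.77 and 1.89, and the small subunit 32 of 32. The p53 targets had 5 of 10 higher there, with medians of 1.21 and 1.32, and 10 of 15 long neuronal genes were lower. The other genes were used by the search, and genes that vary with the ribosomal share can carry it. Before the search each nucleus was also scaled by all its counts, ribosomal ones included. The ribosomal share was therefore not independent of the search, and these values too are a description.

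**Figure D5:**
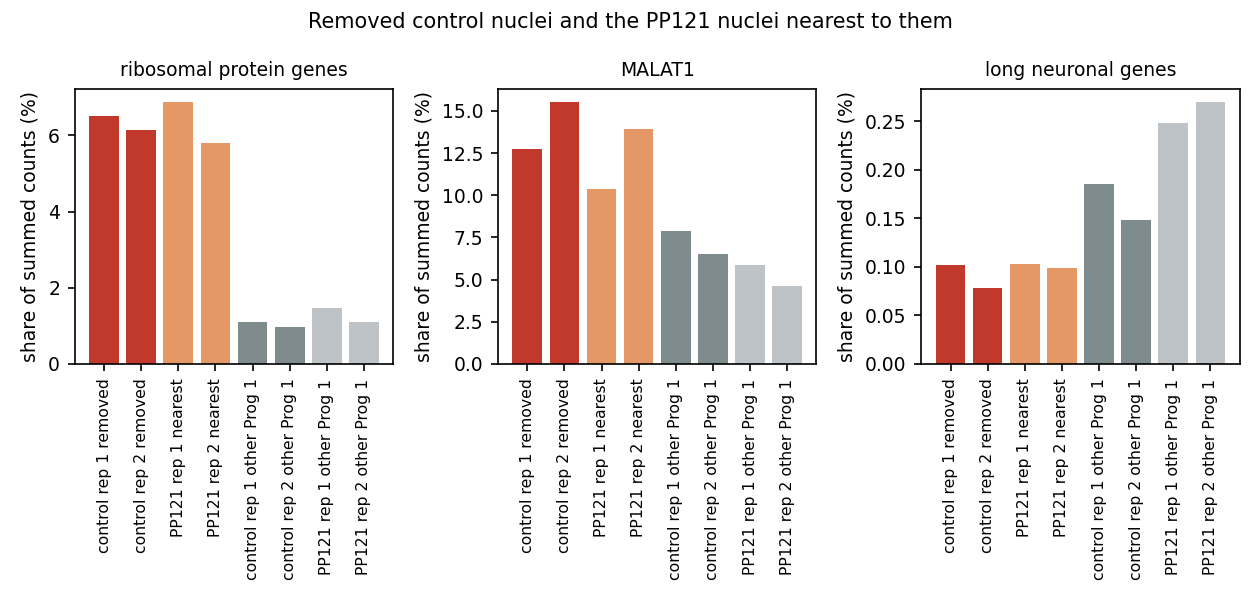
The panels give the summed share of counts, in percent, of ribosomal protein genes, MALAT1 and long neuronal genes, with a bar for each replicate, in the removed control nuclei, the PP121 nuclei nearest to them and the other annotated Progenitor 1 nuclei (Prog 1) of each condition. Ribosomal protein stood at 6.51% and 6.15% in the removed control nuclei and at 6.88% and 5.81% in the PP121 nuclei nearest to them.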

How the data were processed

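Single-nucleus libraries (10x 3′ chemistry) of 4 samples were used as deposited. The deposited counts are UMIs per gene and nucleus, whole numbers that the authors did not normalize, for 36601 features named by symbol. The deposited percent of ribosomal and of mitochondrial counts per nucleus came from the authors' annotation. Per the labels, the submitters' processing notes name Cell Ranger, Seurat 4.0.4 and GRCh38, whereas the study's methods name kallisto and bustools. Intron counting and strand are not given in the sources used here, so antisense and overlapping genes and genes with pseudogene copies are uncertain. No columns of comparisons by the authors were used.

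Counts were summed per sample and set of nuclei and given as CPM, with log2 ratios after a prior of 1 CPM. Genes with a mean of at least 10 CPM were compared, at 2-fold in both replicates. Python 3.11.15 with scanpy 1.11.5, numpy 2.4.6, scipy 1.17.1, pandas 2.3.3, scikit-learn 1.9.0 and igraph 0.11.9 was used; edgeR 4.0.16 and DESeq2 1.42.0 in R 4.3.3 gave alternative size factors only. Neighbours were searched on 30 principal components of 2000 variable genes, and clusters were made on 15 components at a Leiden resolution of 0.5. The log2 ratios and the fold rule were tested on simulated counts with counting error only. The neighbour search, the clustering and the thinning were not tested in this way. Replicates are separate differentiations by the labels. The sums rest on 2391732 and 1512284 UMIs for the removed nuclei.

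Scrublet's own threshold marked 1 and 0 control nuclei and so did not work, and the 6% with the highest scores were taken as doublet candidates instead: 4 and 2 removed and 247 and 192 annotated nuclei. They were kept, and left out as an alternative. The nuclei, the 38 gene lists and the rules were chosen with earlier results of these data known. Of the list symbols, 1 was not matched. The values of 1 gene of the sterol list are not reported here. Beside the lists, genes were named as the 10 with the highest and the 10 with the lowest mean ratio among genes called with a mean of at least 50 CPM, ribosomal and mitochondrial lists left out, and as 5 each way for nuclei nearest to neurons; the genes named within lists, with their roles, illustrate the counts, and leading genes of clusters were chosen after their values were seen. Gene spans were taken from GENCODE for 97.8% of genes, and start sites from RefSeq. Alternatives were a reference reweighted to the nearest classes or matched in UMIs, TMM and DESeq2 scaling, totals without ribosomal and mitochondrial genes, means over nuclei, other filters and folds, other neighbour settings and each replicate left out.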

Additional observations from a re-analysis of the deposited data

Results flagged for a closer look

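In 14 genes the removed nuclei were past 2-fold in opposite directions in the 2 control replicates, 13 of them higher in replicate 1 and 1, MMACHC, higher in replicate 2. None is on a gene list, and in 11 over 50% of the replicate 1 counts lay in cluster 4. In each of these 11 a single nucleus held most replicate 1 counts, as with 664 of 862 for SERPINB9. These genes therefore do not describe the cluster as a whole. The 5 with the widest gap are given here because replicate 1 lay above and replicate 2 below the annotated nuclei of its own sample. KRCC1 differed by 6.17 on the log2 scale between the replicates, with 851 of its 872 replicate 1 counts in 1 nucleus. CLDN6, a tight junction gene, differed by 5.79, with 112 of 159 counts in 1 nucleus. FBXO43, an inhibitor of the anaphase-promoting complex, differed by 5.77, with 149 of 159 in 1 nucleus. CCDC13-AS1 differed by 5.08, with 61 of 77 in 1 nucleus. PRKAR1B, a regulatory subunit of protein kinase A, differed by 4.97, with 881 of 909 in 1 nucleus. The differences between replicates were not tested, since each replicate and day is 1 sample.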

How the results depend on the processing

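The number of genes called moved with the reference, the scaling and the threshold. The 822 higher genes became 396 with the annotated reference reweighted to the nearest classes, 1546 with TMM, 1871 with DESeq2 size factors, 458 at a mean of at least 50 CPM, 1774 at 1.5-fold and 143 at 4-fold, and 931 to 1343 with either replicate left out. The 2642 lower genes became 1255 when reweighted, 1667 with DESeq2, 5795 without a filter on low values, 856 at 50 CPM and 931 at 4-fold, and 3025 to 3252 with either replicate left out. In those leave-one-out counts a gene needs to pass in 1 replicate only, so more genes pass. With replicate 1 or replicate 2 alone the ribosomal protein ratio was 2.58 to 2.67. Reweighting left 0 of 10 p53 targets higher, against 7 to 10 under the other references and scalings, while 78 or 79 of 79 ribosomal protein genes were higher and 15 of 15 long neuronal genes lower under each of them.

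The log2 ratio of summed ribosomal protein counts, 2.63, was 2.46 with UMI-matched nuclei, 2.96 with TMM, 3.07 with DESeq2, 2.71 over totals without ribosomal and mitochondrial genes, 2.54 as a mean over nuclei and 2.25 without cluster 5. Leaving out clusters 4 and 5 was chosen after seeing the data. The share nearest to Progenitor 1, 79.9%, was 33.5% with ribosomal and mitochondrial genes kept, 85.6% with a plain majority and 78.8% to 82.1% with either replicate left out. The glia list had a median of -0.088 with all its 8 members kept, of which 1 was measured otherwise, and this was the 1 change of sign in 168 comparisons over the 14 lists with called medians. No paired analysis was possible because no test was made, and each ratio was already taken within its own sample. With 2 control samples the spread between differentiations is known only from 2 values.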
